A study of Mus musculus with 6 samples.

Results

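The stretch of mouse chromosome 10 from 30 to 65 Mb (build mm9) was examined probe by probe in embryonic stem cells with and without the TET enzymes. It was chosen by its measured values, as a run of probes whose RNA read higher in TKO than in WT cells in these arrays. Its members are the 264 probes that start between 30 and 65 Mb and passed the scanner's test for signal well above background on 3 or more arrays of 6, out of 30724 such probes in all. They stand for 201 gene names, of which 133 are gene symbols. The array design placed 492 probes in the window, so 228 were not members, and 173 of those were well above background on no array. Because the choice rests on the TKO and WT values themselves, the differences given here are a description and carry no test.

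RNA was measured on 6 Agilent arrays of a single colour, each from 1 dish of cells. The WT group was 3 dishes of the wild-type BJ FF2 embryonic stem cell line, and the TKO group was 3 dishes of cells derived from that line in which Tet1, Tet2 and Tet3 had been knocked out. Both groups were kept side by side in 2i medium on inactivated feeders, and before collection the feeders were removed and the cells put on matrigel. The replicates are dishes, all from 1 WT line or its TKO derivative. Every error below therefore rests on the spread between dishes and holds none between separately derived lines or clones. Each error is the standard error (SE) from a fit across all probes that passed the background test. That fit draws the spread of each probe toward that of the others. The labels used here do not say which exons were altered.

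TET enzymes oxidise 5-methylcytosine in DNA, and TET1 is the family member best known in embryonic stem cells, where it binds at CpG-rich promoters. Tet1 itself lies in the segment. Neighbouring genes share chromatin domains and DNA copies, neither of which an RNA array measures, and DNA copy number was not measured here. In bulk RNA, more cells that express a gene and more RNA per cell cannot be told apart.

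Tet1 is shown first because its values differ in sign from those of most genes around it. The following are the first 30 of the 60 bases of each Tet1 probe that was kept, written 5′ to 3′, all on the minus strand.
A_55_P2122997, chr10:62274448-62274507 (mm9): ctgtactcaaataacacacggcttctgttc
A_51_P512172, chr10:62276042-62276101 (mm9): gaatctacagacttctgtcccctgcaggct
A_55_P2123002, chr10:62301856-62301915 (mm9): taatcacatcaacgccgaggtcaggaatgc
The 250 bases upstream of 4 members, from RefSeq on build GRCm38.p6, show how different the promoters of the segment are, with each CG in capitals. Gja1 and Nodal were among the members with the largest differences, Sirt1 was higher too, and Tet1 was lower.
Gja1, chr10:56377050-56377299 (GRCm38.p6, plus strand): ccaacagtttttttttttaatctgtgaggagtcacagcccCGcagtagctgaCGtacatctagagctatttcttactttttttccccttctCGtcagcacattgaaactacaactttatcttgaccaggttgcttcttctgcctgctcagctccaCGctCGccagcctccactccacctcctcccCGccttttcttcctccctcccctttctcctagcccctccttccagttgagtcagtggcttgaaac
Nodal, chr10:61417722-61417971 (GRCm38.p6, plus strand): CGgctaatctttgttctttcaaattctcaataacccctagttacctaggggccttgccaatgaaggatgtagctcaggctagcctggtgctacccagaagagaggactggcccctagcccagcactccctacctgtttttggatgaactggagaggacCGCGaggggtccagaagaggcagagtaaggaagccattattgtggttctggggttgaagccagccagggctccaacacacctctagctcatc
Sirt1, chr10:63339036-63339285 (GRCm38.p6, minus strand): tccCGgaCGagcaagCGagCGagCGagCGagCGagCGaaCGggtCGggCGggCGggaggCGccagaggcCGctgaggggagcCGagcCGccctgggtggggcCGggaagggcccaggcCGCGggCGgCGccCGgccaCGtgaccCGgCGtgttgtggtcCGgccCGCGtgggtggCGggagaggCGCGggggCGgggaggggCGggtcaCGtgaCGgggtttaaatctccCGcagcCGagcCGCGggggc
Tet1, chr10:62887325-62887574 (GRCm38.p6, minus strand): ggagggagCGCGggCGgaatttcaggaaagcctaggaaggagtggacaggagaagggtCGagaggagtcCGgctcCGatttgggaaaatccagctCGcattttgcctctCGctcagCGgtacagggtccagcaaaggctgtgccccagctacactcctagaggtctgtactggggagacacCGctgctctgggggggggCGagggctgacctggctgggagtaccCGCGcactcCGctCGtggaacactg
The motif searched was CG, which reads the same on both strands, and it occurred 6 times before Gja1, 3 times before Nodal, 39 times before Sirt1 and 15 times before Tet1. At least 1 CG stood in 92.1% of all 32851 promoters of that length. Only 88 of the 133 gene symbols of the segment (66.2%) matched a single promoter, so a comparison of CG content over the segment is void.

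The RNA of the segment was higher as a whole in TKO cells. The median difference over the 264 probes was 0.66 on the log2 scale, a ratio of 1.58, whereas the median over the other 1087 kept probes of chromosome 10 was -0.06. Here and below a value is the log2 signal relative to the 75th percentile of its array, and a difference is the TKO mean minus the WT mean over 3 dishes each. The difference was above 0 for 196 members (74.2%), against 43.2% of the probes on the rest of the chromosome. The middle of the distribution ran from -0.02 (lower quartile) to 1.01 (upper quartile) in the segment and from -0.34 to 0.22 outside it. For scale, the median over the 2340 kept probes of chromosome 11 was 0.36, with 74.3% of them above 0. Over all kept probes the median was 0.00, with 49.6% above 0.

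In the fit across all kept probes (limma, Benjamini-Hochberg adjusted p under 0.05), 170 members were called higher in TKO, where 28.9% of all probes were, and 28 were called lower, where 28.2% of all were. All 3 TKO dishes lay above all 3 WT dishes for 175 members, and 32.9% of all probes did so. Taking the brightest probe of each name, 134 of 200 names were called higher, against 29.4% of all names, and 16 lower, against 28.9%. These counts describe how the segment was picked and nothing is read from them. The filter added members that only 1 group had made visible: 6 were well above background on no WT array and 3 on no TKO array. For the 220 members well above background on all 6 arrays the median was 0.67.

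The TKO dishes resembled each other. Set against the WT mean, the segment's median was 0.68 in TKO1, 0.66 in TKO2 and 0.62 in TKO3, and that of the rest of the chromosome was -0.06, -0.05 and -0.09. Each WT dish set against the other WT dishes gave -0.0016 to 0.0032 over the segment and -0.0025 to 0.0051 over the rest. The segment was chosen on these same values, so the distance between TKO and WT dishes is a description only. All 3 TKO dishes were set against the same WT mean. The gap between segment and rest was 0.74, 0.70 and 0.70 for TKO1 to TKO3. TKO1 shared its row of the slide with the 3 WT arrays, whereas TKO2 and TKO3 lay in another row. The part of the row in these values was not tested, with only 1 TKO array in the shared row.

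**Figure D1:**
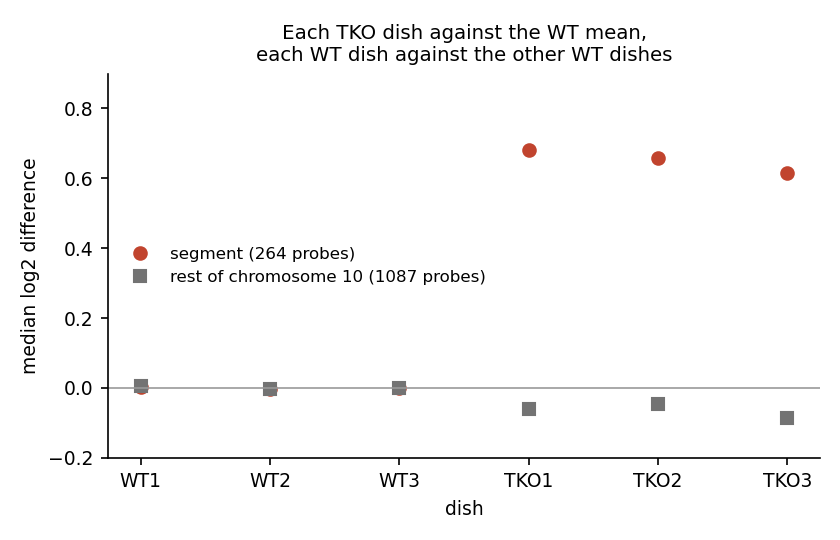
Median log2 difference of each dish (horizontal axis) over the segment (circles) and over the rest of chromosome 10 (squares), each TKO dish against the WT mean and each WT dish against the other WT dishes. The TKO circles sit at 0.62 to 0.68, the TKO squares at -0.09 to -0.05, and the WT points between -0.0025 and 0.0051.

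The rise was not even along the segment. Steps of 1 Mb with at least 5 probes were compared. The median difference was above 0.3 in 14 of 18 steps of the segment and in 3 of 60 outside it. Those 3 outside steps began at 24, 66 and 94 Mb. They read 0.71 over 13 probes, 0.38 over 25 and 0.94 over 31, so the rest of the chromosome also held steps of the segment's height. Between 30 and 33 Mb the median of 15 probes was 0.10. It was 0.72 over 94 probes from 33 to 45 Mb, 0.97 over 38 probes from 45 to 58 Mb and 0.66 over 68 probes from 58 to 62 Mb. The highest step with 5 probes or more, from 45 to 46 Mb, read 1.37 over 6 probes, all of them positive. That step holds Lin28b, which encodes a protein that binds let-7 precursors, and Bves, a gene of a membrane protein of muscle.

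Gaps and dips interrupted it. No kept probe lay in the 2.87 Mb between 47467209 and 50337946, in the 2.6 Mb between 34117943 and 36713455, or in the 2.37 Mb between 53366798 and 55734137. The step from 44 to 45 Mb read -0.04 over 7 probes, of which 3 were positive. Those 3 were its gene symbols, Atg5 (1.12 ± 0.067), Prdm1 (0.76 ± 0.059) and Prep (1.12 ± 0.043), all called higher. The other probes of that step were of clone or predicted names or of a lincRNA. The step from 60 to 61 Mb read 0.05 over 23 probes, with quartiles at -0.37 and 1.03, so this step held probes of both signs. It contains Unc5b and Nodal, both far higher in TKO, beside lincRNA probes that were lower.

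**Figure D2:**
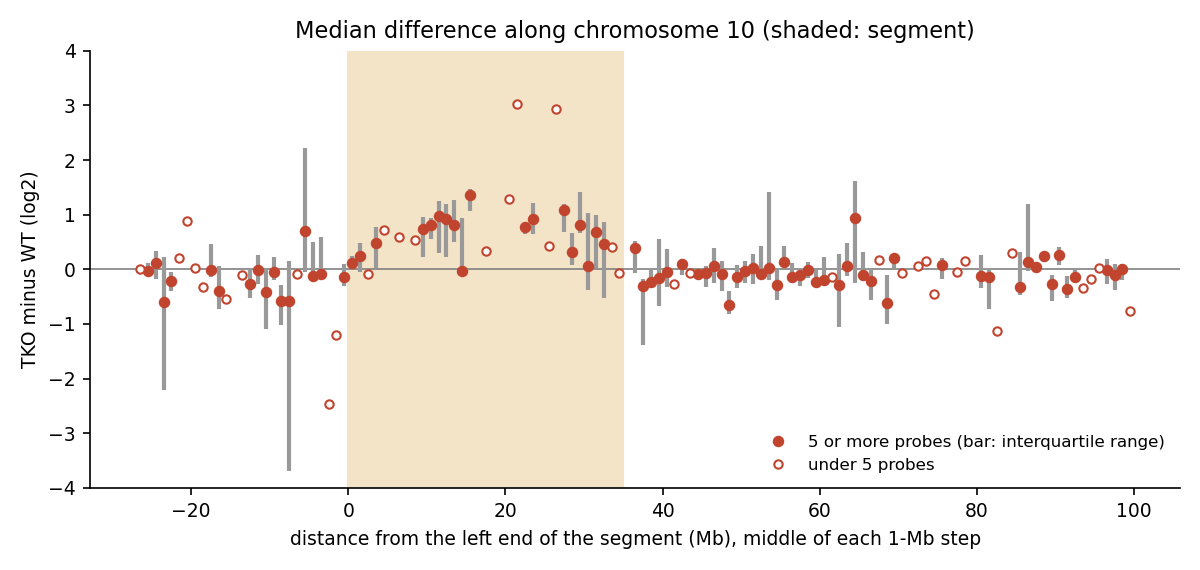
Median TKO minus WT difference (log2, vertical axis) of the kept probes in each 1-Mb step of chromosome 10, by distance from the left end of the segment (Mb), with the interquartile range as a bar where a step held 5 probes or more. In the shaded segment 14 of 18 filled circles lie above 0.3, and outside it 3 of 60 do.

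On the left, the profile stepped up inside the window and not at its limit. The nearest gene symbols outside 30 Mb were Cenpw, a centromere protein gene, at -0.28 ± 0.043 (SE), Rspo3, a Wnt-enhancing ligand, at 0.64 ± 0.195, and Rnf146 at -0.01 ± 0.086. Beyond them came Echdc1 at 0.38 ± 0.130, not called, and Soga3 at -1.90 ± 0.140, the largest difference of the 5. Just inside stood Trmt11, a tRNA methyltransferase gene, at 0.10 ± 0.061 and Hint3 at 0.12 ± 0.043. Ncoa7, a nuclear receptor coactivator gene, followed at 1.22 ± 0.205, and Hddc2 and Tpd52l1 at 0.49 ± 0.073 and 0.59 ± 0.044. A pair of steps was then fitted to chromosome 10 so that the summed distance of all probes from 1 median inside and 1 outside was smallest. Its left step fell between Rsph4a at 33635445 (-0.09 ± 0.209), a gene of the ciliary radial spoke, and Zufsp at 33639106 (0.80 ± 0.047), now named Zup1, a deubiquitinase gene. It fell there in each TKO dish. The next genes inside were Rwdd1 (0.56 ± 0.043), Fam26e (-0.85 ± 0.146), Fam26f (0.36 ± 0.047) and Dse (1.52 ± 0.037), a gene of dermatan sulfate synthesis. Before the step, Rnf217 (-0.19 ± 0.249) and Nkain2 (0.00 ± 0.162) were not called.

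On the right, the fitted right step fell between Stox1 at 62122262 (1.30 ± 0.352) and Ccar1 at 62207215 (0.12 ± 0.039), with 205 probes inside at a median of 0.76 and the others at -0.06. The genes just inside were Ddx50 (0.74 ± 0.057) and Ddx21 (1.08 ± 0.068), both of RNA helicases, Srgn (1.56 ± 0.190), of a proteoglycan core protein, and Vps26a (0.75 ± 0.051), of the retromer. Tet1 lay outside the fitted step. Several genes beyond Tet1 were again higher, though not Pbld2 (0.14 ± 0.254) or Pbld1 (-0.08 ± 0.078). Dna2, a nuclease and helicase gene of DNA replication, was higher by 0.66 ± 0.059 and Rufy2 by 0.96 ± 0.043. Herc4, Sirt1 and Dnajc12 followed at 0.61 ± 0.040, 1.50 ± 0.043 and 0.57 ± 0.053. The right step moved to 63389586 when only probes well above background on all 6 arrays were used. It moved to the same probe without the probes within 100 kb of Tet1, a choice made after seeing the data.

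Past Dnajc12 the window held only 2 kept probes, and the last, at 64997928, read -0.08. The first gene symbols outside 65 Mb were Reep3 at 66476432 with 0.50 ± 0.043 and Jmjd1c, a histone demethylase family gene, at 66718991 with 0.51 ± 0.061. Then came Nrbf2 (-0.07 ± 0.056), Ado (-0.04 ± 0.059) and Zfp365 (-0.28 ± 0.048). In the profile of TKO2 alone the right step fell at Jmjd1c (66.7 Mb), and in TKO1 and TKO3 at Stox1 (62.1 Mb). The fitted right end thus varied between dishes, from 62.1 to 66.7 Mb, and the left end did not. With no filter on dim probes, however, the left step fell at 23.6 Mb, outside the window.

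Medians varied with the kind of transcript and little with brightness. Probes of gene symbols had a median of 0.78 (167 probes, 85.0% positive, lower quartile 0.34), against -0.06 for the 711 such probes on the rest of the chromosome. Sorted by WT signal into 5 classes, their medians were 0.78, 0.71, 0.75, 0.82 and 0.75 from the dimmest to the brightest class. The matching medians of the rest of the chromosome were 0.23, -0.06, -0.11, -0.12 and -0.06. Clone and predicted names gave 0.37 (50 probes, 64.0% positive). The 47 lincRNA probes gave -0.04, with 22 positive, and 21 of them lay within 100 kb of Tet1.

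The gene symbol with the largest rise was Gja1, which encodes the gap junction protein connexin 43. Its probe at 56109814 gave -2.74, -2.78 and -2.72 for WT1 to WT3 and 0.48, 0.71 and 0.72 for TKO1 to TKO3, the order used for every gene below. The groups were far apart, and the difference was 3.38 ± 0.076 (SE), a 10.4-fold rise. Neurog3, a transcription factor gene of endocrine progenitors, gave -1.64, -1.53 and -1.69 (WT) and 1.00, 1.04 and 1.05 (TKO), a difference of 2.65 ± 0.054. All of its TKO dishes were high and nearly equal. Hkdc1, a hexokinase-like gene, was at -3.80, -3.83 and -3.98 for WT and at -1.48, -1.69 and -1.64 for TKO, or 4.83-fold more.

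Unc5b, a netrin receptor gene, was brighter and rose from 1.47, 1.45 and 1.52 to 3.64, 3.46 and 3.51, by 2.05 ± 0.059. Smpdl3a, a gene of a sphingomyelinase-like phosphodiesterase, had WT values of -3.97, -4.02 and -4.29 and TKO values of -2.20, -2.08 and -1.93. Cdk19, a kinase gene of the Mediator complex, gave -1.91, -1.59 and -1.61 (WT) and 0.15, 0.09 and -0.04 (TKO). In each of these the lowest TKO dish stood above the highest WT dish. Nodal, the TGF-beta family ligand that patterns the early embryo, was at 2.46, 2.46 and 2.57 for WT and at 4.25, 4.24 and 4.27 for TKO, 3.37-fold higher. Fam162b was well above background on 0 WT arrays and on all 3 TKO arrays, which bounds its rise at 1.97-fold or more.

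A probe of the predicted locus LOC102636048, at 41967288, showed the largest difference of any member, and is named because of its value. It had WT values of -4.34, -4.51 and -4.79 and TKO values of 0.42, 0.16 and 0.20, a difference of 4.81 ± 0.14 (SE). The clone 4632428N05Rik, named Vsir in the gene table used here and known as the immune checkpoint VISTA, gave -4.85, -5.47 and -5.77 (WT) and -2.50, -2.51 and -2.50 (TKO). Only 1 WT array was well above background for it, against 3 TKO arrays.

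**Figure D3:**
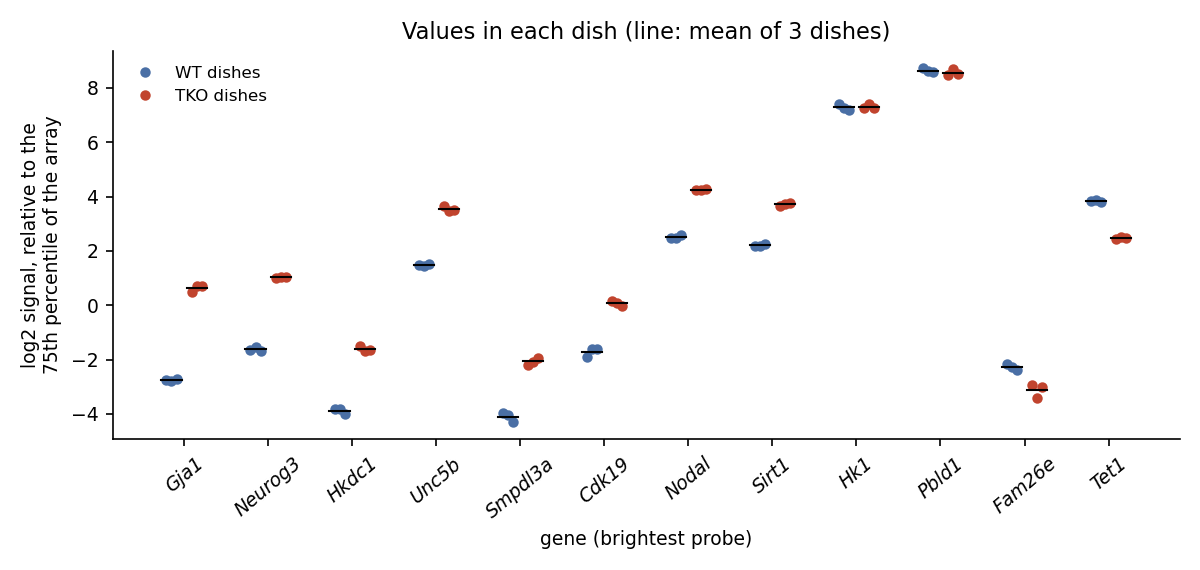
Log2 signal relative to the 75th percentile of the array (vertical axis) of 12 genes of the segment in each WT and TKO dish, with the mean of 3 dishes as a line. The WT and TKO dishes do not overlap for Gja1, Neurog3, Hkdc1, Unc5b, Smpdl3a, Cdk19, Nodal, Sirt1, Fam26e and Tet1, and they overlap for Hk1 and Pbld1.

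Few gene symbols went the other way. Besides Tet1, Ddo, a D-aspartate oxidase gene, and Fam26e, now Calhm5, were lower. Ddo was at -4.73, -4.55 and -3.79 for WT and at -5.65, -4.89 and -5.56 for TKO. It was well above background on no TKO array, so its fall is bounded only at 1.17-fold or more and its place among the lower genes is not settled. Fam26e had WT values of -2.17, -2.26 and -2.38 and TKO values of -2.94, -3.43 and -2.99, a difference of -0.85 ± 0.146 with no overlap. Sept10, a septin gene, differed by -0.38 ± 0.092. Foxo3 (-0.34 ± 0.370), Armc2 (-0.32 ± 0.543), Tspyl4 (-0.21 ± 0.085) and Sobp (-0.21 ± 0.087) were the others of the 8 lowest by measured mean, and none of these 4 was called.

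Some bright members showed little difference. Pbld1 gave 8.71, 8.60 and 8.59 (WT) and 8.48, 8.70 and 8.50 (TKO), a difference of -0.08 ± 0.078. Hk1, the gene of hexokinase 1, was picked here for its flat values. Its brightest probe was at 7.40, 7.25 and 7.19 for WT and at 7.24, 7.41 and 7.27 for TKO, and its other probes differed by -0.26 and -0.34. Its paralog Hkdc1, whose probe lies at 61845922 against 61731230 for Hk1, was among the largest rises.

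Different probes of a gene mostly had the same sign, in a segment where 85.0% of gene symbol probes were positive. Of 29 gene symbols with several kept probes, all probes were positive for 23 and all negative for 1, Tet1, and the median range between probes was 0.23. The 5 with both signs were Aifm2, Hk1, Ostm1, Rnf217 and Tbata. Ostm1 was the most divided: its brighter probe at 42422061 rose by 1.68 ± 0.057, while the probe at 42303788 was well above background on all WT arrays and no TKO array, at least 2.28-fold lower. Some genes with all probes positive differed in size between probes. Tacr2, a neurokinin receptor gene, gave 0.02 at its brighter probe and 2.03 at the other. Ccdc138 gave 0.00 at its brighter probe and 1.40 at the other, and Tspan15 gave 0.17 and 0.89. For such genes the direction or the size depends on the probe.

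Of 118 listed genes in 8 groups, 90 had a kept probe in the segment, 26 had none well above background often enough and 2 had no probe of that name. By the fit across all probes, 74 of the 90 were called higher, 3 lower and 13 neither, and 79 had a difference above 0. Over all 21557 names the median was -0.01, with 29.4% called higher and 28.9% lower. Over all 133 gene symbols of the segment the median was 0.79, with 78.9% called higher and 4.5% lower. The groups were set with results of these data known. Their counts partly restate how the segment was found and the share over all its gene symbols.

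Among genes of chromatin, DNA replication and repair, 11 of 13 were called higher, with a median of 0.75. Sirt1, an NAD-dependent deacetylase gene whose promoter is printed above, had WT values of 2.20, 2.19 and 2.24 and TKO values of 3.66, 3.71 and 3.76, 2.83-fold more. Ascc3, a helicase gene of alkylation repair, differed by 1.37 ± 0.057. Tspyl4, of the nucleosome assembly protein family, was not called, and Tet1 was called lower. All 9 genes listed for RNA helicases, RNA processing and translation were called higher, at a median of 0.80. One of them, Anapc16 (1.52 ± 0.059), encodes a subunit of the anaphase-promoting complex, a ubiquitin ligase, and does not belong under that name. The others ran from the splicing factor gene Hnrnph3 (0.48 ± 0.067) and the translation inhibitor gene Eif4ebp2 (0.52 ± 0.046) to Qrsl1 (1.32 ± 0.044), of mitochondrial tRNA charging.

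Among transcription and developmental regulators, 7 of 9 were called higher, at a median of 1.11. Neurog3 and Nodal led them, and Foxo3 and Sobp were not called. Another 6 listed regulators (Hey2, Nr2e1, Sim1, Rfx6, Vgll2 and Atoh7) were not members because they were well above background on fewer than 3 arrays. Genes of growth arrest, stress and autophagy had a median of 1.05, with 7 of 8 called higher. Ddit4, an mTORC1 inhibitor gene, gave 4.52, 4.51 and 4.39 (WT) and 6.20, 5.77 and 6.09 (TKO). Sesn1, a sestrin gene, differed by 1.39 ± 0.075, the ubiquitin ligase gene Herc4 by 0.61 ± 0.040, and the adaptor gene Traf3ip2 by 0.20 ± 0.069, which was not called.

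All 15 measured genes listed under lysosomes, membrane traffic and glycan enzymes were called higher, at a median of 0.98, the value of Ranbp2. The list is broad, and not every gene on it was checked for that role. The lowest were the lipid phosphatase gene Fig4 (0.55 ± 0.044) and the chondroitin sulfotransferase gene Chst3 (0.60 ± 0.080), and the highest were Ostm1, by its brighter probe, and Smpdl3a. Genes of mitochondria and metabolism were more mixed, with 12 of 17 higher and a median of 0.66. Hkdc1 and Pdss2 (1.22 ± 0.044), a gene of coenzyme Q synthesis, were highest. Ddo and the ferroptosis suppressor gene Aifm2 (-0.17 ± 0.055) were called lower, and a second Aifm2 probe rose by 0.69.

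Among genes listed under adhesion, matrix, cytoskeleton and signalling, 12 of 15 were called higher at a median of 0.83, led by Gja1 and Unc5b. The perforin gene Prf1 (-0.20 ± 0.108) and the collagen gene Col13a1 (-0.06 ± 0.549) were not called. Col13a1 read -3.28 in TKO1 and -5.25 and -5.14 in TKO2 and TKO3, so 1 dish set it apart. Of 14 tissue genes of nerve, muscle and gut, only 4 were measurable, and their median was 0.01. Bves was higher (1.42 ± 0.044), whereas Gpr6 (-0.16 ± 0.083), Nkain2 (0.00 ± 0.162) and Tacr2, by its brighter probe, were not called.

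**Figure D4:**
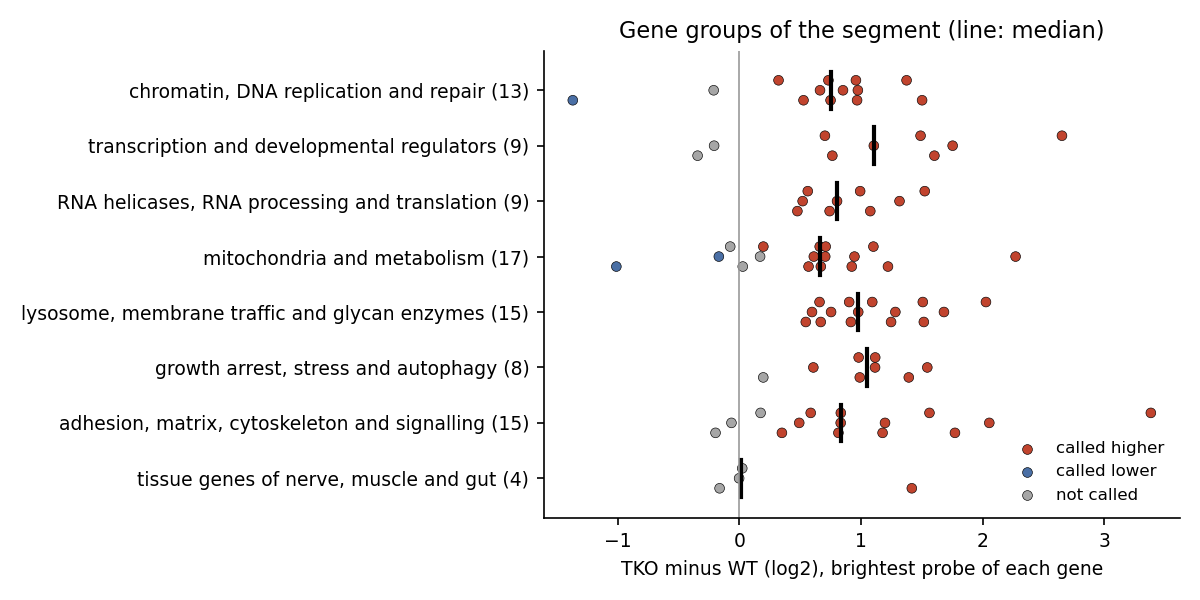
TKO minus WT difference (log2, horizontal axis) of the brightest probe of each gene in 8 groups, with the number of genes in brackets, the group median as a line and colours for the call in the fit across all probes. Medians lie between 0.66 and 1.11 in 7 groups and at 0.01 for the 4 tissue genes.

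Tet1 stood against this background with all of its probes lower. The brightest, the first printed above, was at 3.84, 3.88 and 3.81 for WT and at 2.42, 2.52 and 2.47 for TKO, so the TKO level was 38.7% of WT. The probe at 62276042 gave 38.7% and the one at 62301856, 27.4 kb from the brightest, gave 44.6%. The labels do not place the altered exons, so these probes do not check the knockout. The nearest genes on either side differed little, Ccar1 at 0.12 ± 0.039 (67.2 kb away) and Slc25a16, a mitochondrial carrier gene, at 0.20 ± 0.045 (134.1 kb away).

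Beside the Tet1 probes, lincRNA probes shared their direction. Between 4.92 and 7.15 kb from the brightest Tet1 probe, 9 probes of 3 annotated lincRNAs differed by -1.67 to -0.52. On the minus strand, the strand of Tet1, 3 probes of chr10:62267317-62269871 fell by 1.26 to 1.34 on the log2 scale. The brightest of them had WT values of 3.35, 3.46 and 3.33 and TKO values of 2.06, 2.17 and 2.11. The TKO level of these 3 probes was 39.6% to 41.8% of WT, against 38.7% to 44.6% for the Tet1 probes. Probes were not placed in exons, so whether these lincRNA probes read separate RNAs or part of the Tet1 RNA was not tested. On the plus strand, 5 probes of chr10:62262341-62269593 were dim, and 1 or 0 TKO arrays were well above background for each.

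On the other side of the brightest Tet1 probe, 73.4 to 86.4 kb away, lincRNA probes had both signs. Whether these probes, too, read separate RNAs or part of the Tet1 RNA was not tested. The Tet1 promoter printed above is on another build and was not placed among them. Of the 8 probes of chr10:62347876-62374346 on the minus strand, 5 were called higher and 1 lower, with a range of -0.56 to 1.36. The 2 probes on the plus strand of the same interval read -0.29 and 0.08. The array reads both strands of the same bases in places, and a pair of such probes is shown because their values differ. Capitals mark bases that are complementary between the probes. The lines give the first 30 bases of each 60-base probe, and the complementary run is 33 bases long.
A_30_P01031446, chr10:62355809-62355868 (mm9, minus strand): AATGTCTTTGGGATCCTGTAGCGGCAGGAG
A_30_P01018257, chr10:62355836-62355895 (mm9, plus strand): AAACTCCTGCCGCTACAGGATCCCAAAGAC
The minus-strand probe gave -0.86, -0.74 and -0.81 (WT) and 0.56, 0.62 and 0.50 (TKO), a difference of 1.36 ± 0.056. The plus-strand probe was at -4.89, -4.88 and -4.63 for WT and at -4.87, -3.84 and -5.44 for TKO, a difference of 0.08 ± 0.407. The plus-strand probe was well above background on 3 WT and 2 TKO arrays.

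**Figure D5:**
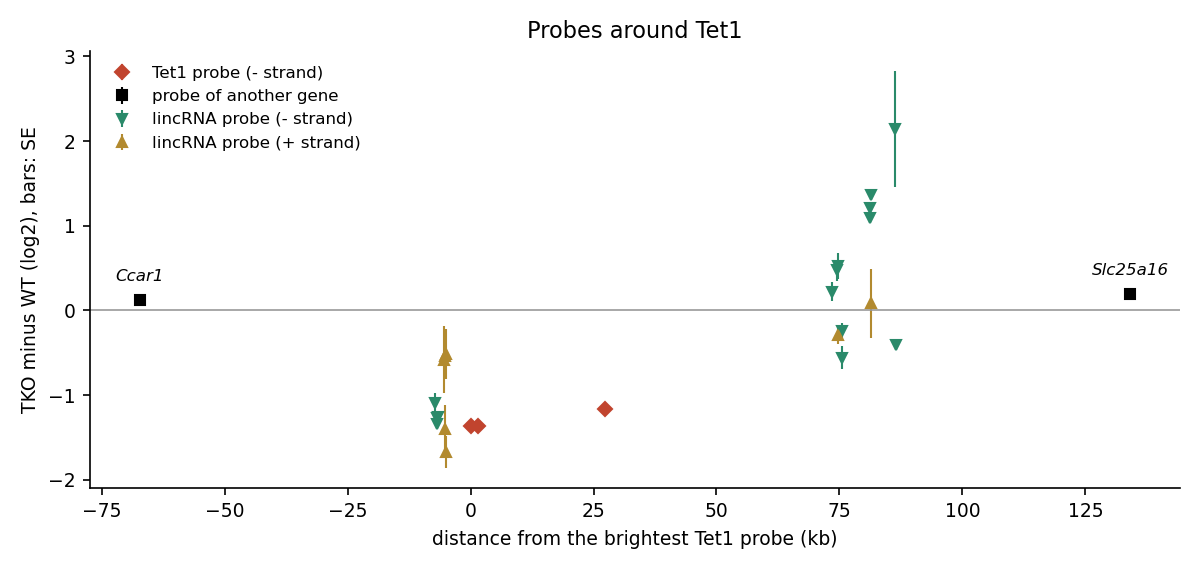
TKO minus WT difference (log2, vertical axis, bars SE) of the kept probes around Tet1, by distance in kb from its brightest probe, with lincRNA probes split by strand. The 3 Tet1 probes and 9 lincRNA probes within 7.15 kb lie at -1.67 to -0.52, and those 73.4 to 86.4 kb away lie on both sides of 0.

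Further from Tet1, the 26 other lincRNA probes had a median of 0.32, with 14 positive. The 4 probes of the minus-strand transcript at chr10:39383665-39442690 rose by 0.76 to 0.86. Of 6 probes of the minus-strand transcript at chr10:60473030-60535340, the one at 60481945 read 0.76 and was not called, and the others, from 60502171 on, differed by -0.75 to -0.46, with 4 called lower. Leaving out all probes within 100 kb of Tet1, the segment's median was 0.69 over 239 probes.

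Several measured facts stood beside these differences. All 6 stem cell markers (Pou5f1, Sox2, Nanog, Esrrb, Dppa5a and Tdgf1) were well above background on every array. Their summed level, in multiples of each array's 75th percentile, was 617.6 to 694.4 in WT and 528.9 to 585.2 in TKO dishes. Dppa5a, the brightest of them, overlapped between the groups (8.30, 8.11 and 7.97 in WT, 8.06, 8.28 and 8.03 in TKO). The others were lower in every TKO dish than in any WT dish. Of 12 fibroblast markers, which feeder cells express, 10 were well above background on all WT arrays and 11 on all TKO arrays, and Lum was on none. The fibroblast sum was 28.4 to 29.0 in WT and 35.7 to 38.5 in TKO dishes. Its brightest markers, Col1a2, Thy1, Col1a1 and S100a4, were higher in every TKO dish. Dcn overlapped between the groups (-2.06, -2.72 and -3.02 in TKO, against -2.66, -2.32 and -2.35 in WT). Pdgfrb was lower in TKO (-2.52, -3.04 and -2.67, against -0.62, -0.33 and -0.50 in WT). The part of feeder RNA, or of the lower stem cell marker level, in the segment's values was not tested. Per array, 51.9% to 58.5% of spots passed the background test and 0 were saturated. In the segment, 49.6% of the 492 probes were well above background on all WT arrays and 47.6% on all TKO arrays. Over all probes of the array these shares were 52.2% and 48.2%. The standard deviation of the negative control spots was 13.1 on TKO2 and 7.1 on TKO3, against 0.83 to 3.92 on the other arrays.

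The size of the rise depended on the processing. With normexp background correction the segment's median was 0.33 and the gap to the rest of the chromosome 0.39, and without a filter on dim probes the gap was 0.41. Centring each array on its median lowered the median difference of all kept probes from 0.00 to -0.20 and called 149 members higher and 53 lower, in place of 170 and 28, with the gap at 0.72.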

How the data were processed

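Each of 6 dishes had 1 deposited array file, written by Agilent Feature Extraction 11.5.1.1 per the submitters' processing notes. Its processed signal, mean signal and local background are intensity values per the file headers. Background had been subtracted from the processed signal, with no normalization between arrays, and probe positions are on mm9. The deposited spot flags (well above background, saturated, outlier) are 0 or 1. The authors also deposited a table of log2 values, whose scaling the sources used here do not state. Its 75th percentile was 0 on each of the 6 arrays. After a constant shift per array, 100% of its probes lay within 0.01 of the log2 processed signal. The deposited table is thus the same data on nearly the same scale, and not an independent alternative. Control and outlier spots were left out, spots of a probe were averaged, and each value is log2 of the processed signal minus the array's 75th percentile. Probes well above background on at least 3 of 6 arrays were fitted with limma 3.58.1 in R 4.3.3 (two-sided, Benjamini-Hochberg over 30724 probes), and the code was tested on simulated data. Edges were fitted with at least 20 probes inside. All arrays shared 1 slide and 1 scan. Same-numbered dishes did not deviate together (correlations -0.06, -0.01 and 0.00), so the numbers do not pair them.

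The members, gene groups and rules were chosen with earlier results of these data known. Named were Tet1 with each probe, the 2 highest and 2 lowest genes of each group, the 8 largest rises and falls, the 5 gene symbols inside and outside each ruled or fitted edge, and genes said to be picked for their values. Each gene is given by its brightest kept probe. Amd1 was matched to probes named Amd2, a synonym. Names follow the array design. With no mm9 annotation used here, probes were not placed in exons or UTRs. Precision is limited by 6 arrays. Alternatives were other normalizations, background correction, filters, probe summaries, the deposited table, the first array row alone, a replicate block and leaving out each dish.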

Additional observations from a re-analysis of the deposited data

How the results depend on the processing

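The segment's median stayed above 0 and above that of the rest of chromosome 10 in every alternative run. The segment's median was 0.66 as reported, 0.47 with median centring, 0.56 with quantile normalization, 0.33 with normexp and 0.54 with no filter on dim probes. The gap to the rest, 0.72, was 0.67 with quantile normalization, 0.39 with normexp and 0.41 with no filter. In alternatives chosen after seeing the data, the gap was 0.75 without the 100 kb around Tet1 and 0.84 with gene symbols only. Members called lower numbered 28, and 53 with median centring, 16 with the brightest probe per gene and 15 with the mean of probes per gene. The left edge, at 33.639 Mb, was at 33.872 with normexp, 33.846 with the brightest probe, 33.710 with the mean of probes and 23.587 with no filter. The right edge, at 62.122 Mb, was at 63.390 with probes well above background on all 6 arrays and without the 100 kb around Tet1. Leaving out each dish in turn gave medians of 0.625 to 0.672, gaps of 0.688 to 0.742, and 155 to 163 members called higher and 24 to 31 lower. With a replicate block, 160 members were called higher and 26 lower. Among 1110 values of 70 named genes under the alternatives, 36 changed sign, for 15 genes. In 31 of them the difference was not called on either side, among them Trmt11 (-0.092), Hint3 (-0.073) and Tacr2 (-0.17) with median centring and Pbld2 with median centring (-0.056) and quantile normalization (-0.058). The other 5 were Ccar1 with median centring (-0.071), Aifm2 (0.26) and Ostm1 (-0.0097) with the mean of probes, and Nkain2 (0.36) and Col13a1 (1.22) with the first array row alone, which keeps TKO1 as the only TKO dish. In all, 53 values were no longer called and 30 became called. Why these values moved was not tested.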
